A study of Mus musculus with 18 samples.

Results

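The endoplasmic reticulum (ER) folding genes described here are 10 genes, the transcription factor Xbp1 and 9 genes of the chaperone and degradation machinery that it and its partner factors are known to control: Hspa5, Hsp90b1, Calr, Dnajb9, Sdf2l1, Pdia4, Pdia6, Herpud1 and Edem1. They were chosen by name, and were found on a whole mouse genome array through the accession that the array gives each probe. These 10 genes had 12 of the 39429 probes, against 20659 genes with a symbol on the array in all, and every one of the 12 probes lay well above background on all 9 arrays. A probe was read as log2 signal minus the array's 75th percentile, and a gene with more than 1 probe took the brightest. All 10 genes passed the filter on dim probes, so none was lost from the comparisons.

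Male C57BL/6 mice aged 6 weeks went 12 h without food, then received saline (control) or a single oral dose of monocrotaline (MCT) of 270 mg/kg (MCT 270) or 330 mg/kg (MCT 330), with 8 mice per group. Livers were taken 48 h after the dose. MCT is a plant pyrrolizidine alkaloid that liver enzymes turn into a reactive pyrrole, and it is known for injuring the lining of the liver sinusoids. With 3 arrays per group, labelled as separate mice, 9 arrays of liver RNA were deposited. The 75th percentile of signal ran from 498.2 to 703 and the share of probes well above background from 62.9% to 80.2%. The number of arrays limits the precision. All 18 hepatocyte markers, from Alb to Hnf4a, were well above background on all 9 arrays.

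The 9 arrays held fewer than 9 distinguishable samples. Replicates 2 and 3 of each group differed by an SD of 0.0297 to 0.0381 log2 units, less than the 0.0527 to 0.0635 by which spots of the same probe varied within an array. MCT 330 replicate 1 differed from replicates 2 and 3 by 0.0569 and 0.0556, at 0.953 and 0.978 times the spot noise. In these 2 pairs 99 and 107 probes differed by over 1 log2 unit, against 2 to 8 between replicates 2 and 3 of each group. Control replicate 1 and MCT 270 replicate 1 lay 0.168 to 0.234 from the other arrays of their groups. Arrays within the noise were averaged, which left 5 samples: control replicate 1, control replicates 2 and 3, MCT 270 replicate 1, MCT 270 replicates 2 and 3, and MCT 330. MCT 330 thus counts as 1 sample and is assumed to vary like the others, and p-values measure only the spread between these samples. MCT 330 replicate 1 exceeded the noise in some brightness classes. Counts of the 10 genes and of all genes are therefore also given with it as a sample of its own. Counts of the other lists are from the fit of 5 samples only. The MCT 330 arrays were scanned at 2 times of their own, so MCT 330 and scan time cannot be told apart, while control and MCT 270 arrays shared the other 2 scan times.

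Secreted and membrane proteins fold in the ER with the help of chaperones, lectins and disulphide isomerases, and hepatocytes, which export most plasma proteins, depend heavily on them. When unfolded proteins build up, 3 sensors in the ER membrane start the unfolded protein response (UPR). Ire1 splices the Xbp1 mRNA so that it encodes an active factor, Atf6 is cut to release a factor that binds the ER stress response element (ERSE), and Perk slows translation and raises Atf4. Xbp1 and Atf6 are known for raising chaperones and degradation factors, and Atf4 for raising amino acid and stress genes. The array reads the Xbp1 mRNA through 1 probe, and spliced and unspliced forms were not told apart.

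Promoters of 5 of the 10 genes held an ERSE-type motif, and their 250 bases before the annotated start are shown because this element is what the Atf6 and Xbp1 branches are known to act through. ERSE was searched as CCAAT and CCACG with 9 free bases between them, ERSE-II as ATTGG and CCACG with 1 free base between them, and the UPR element (UPRE) as TGACGTGG, on both strands, in windows from 250 bases before to 50 bases from the start on, with sequences from RefSeq (GRCm38.p6). Each sequence runs 5′ to 3′ on the gene's own strand, and capitals mark the motif. A match on the opposite strand reads as the reverse complement, and no 2 matches overlapped.
Hspa5, chr2:34771840-34772089, plus strand: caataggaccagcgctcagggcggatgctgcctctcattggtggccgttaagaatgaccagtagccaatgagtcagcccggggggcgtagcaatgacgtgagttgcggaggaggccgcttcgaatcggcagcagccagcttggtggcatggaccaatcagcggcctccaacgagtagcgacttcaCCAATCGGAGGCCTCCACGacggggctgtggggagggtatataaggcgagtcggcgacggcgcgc
Hsp90b1, chr10:86705445-86705694, minus strand: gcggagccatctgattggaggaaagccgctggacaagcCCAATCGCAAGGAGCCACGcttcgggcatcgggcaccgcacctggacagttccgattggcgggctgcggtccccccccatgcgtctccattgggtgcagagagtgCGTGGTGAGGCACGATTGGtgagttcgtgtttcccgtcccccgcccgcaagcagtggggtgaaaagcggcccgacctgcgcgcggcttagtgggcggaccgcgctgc
Calr, chr8:84846932-84847181, minus strand: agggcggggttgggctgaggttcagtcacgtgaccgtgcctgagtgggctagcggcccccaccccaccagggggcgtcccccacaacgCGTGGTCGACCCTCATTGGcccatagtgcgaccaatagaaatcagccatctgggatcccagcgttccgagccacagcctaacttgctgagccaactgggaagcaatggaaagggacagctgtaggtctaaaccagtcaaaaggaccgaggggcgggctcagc
Pdia6, chr12:17266339-17266588, plus strand: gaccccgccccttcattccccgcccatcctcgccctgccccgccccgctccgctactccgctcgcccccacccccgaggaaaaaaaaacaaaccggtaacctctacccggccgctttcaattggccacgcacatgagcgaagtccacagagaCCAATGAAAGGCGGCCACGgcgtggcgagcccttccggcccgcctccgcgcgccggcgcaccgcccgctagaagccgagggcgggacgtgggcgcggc
Herpud1, chr8:94386179-94386428, plus strand: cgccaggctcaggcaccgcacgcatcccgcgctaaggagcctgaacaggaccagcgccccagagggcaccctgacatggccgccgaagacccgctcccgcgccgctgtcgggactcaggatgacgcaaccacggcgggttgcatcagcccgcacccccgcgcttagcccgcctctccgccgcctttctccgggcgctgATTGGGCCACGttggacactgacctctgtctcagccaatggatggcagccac
With bases before the start counted as negative, Hspa5 held ERSE from -65 to -47 and Pdia6 from -98 to -80, both on the gene's own strand. Calr held it on the opposite strand from -162 to -144. Hsp90b1 held 2 copies, from -212 to -194 on its own strand and from -107 to -89 on the opposite one. Herpud1 held ERSE-II from -52 to -42 on its own strand. ERSE was in 4 of 10 genes against 0.137% of 27025 genes with a window, and ERSE-II in 1 of 10 against 0.0444%. The genes beside Xbp1 are known targets of factors that act through this element, so the contrast is a description and not a test. UPRE matched none of the 10 windows and 0.714% of all genes. No match was found in the windows of Xbp1, Dnajb9, Sdf2l1, Pdia4 and Edem1, which says only that these letters are not in those windows.

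**Figure D1:**
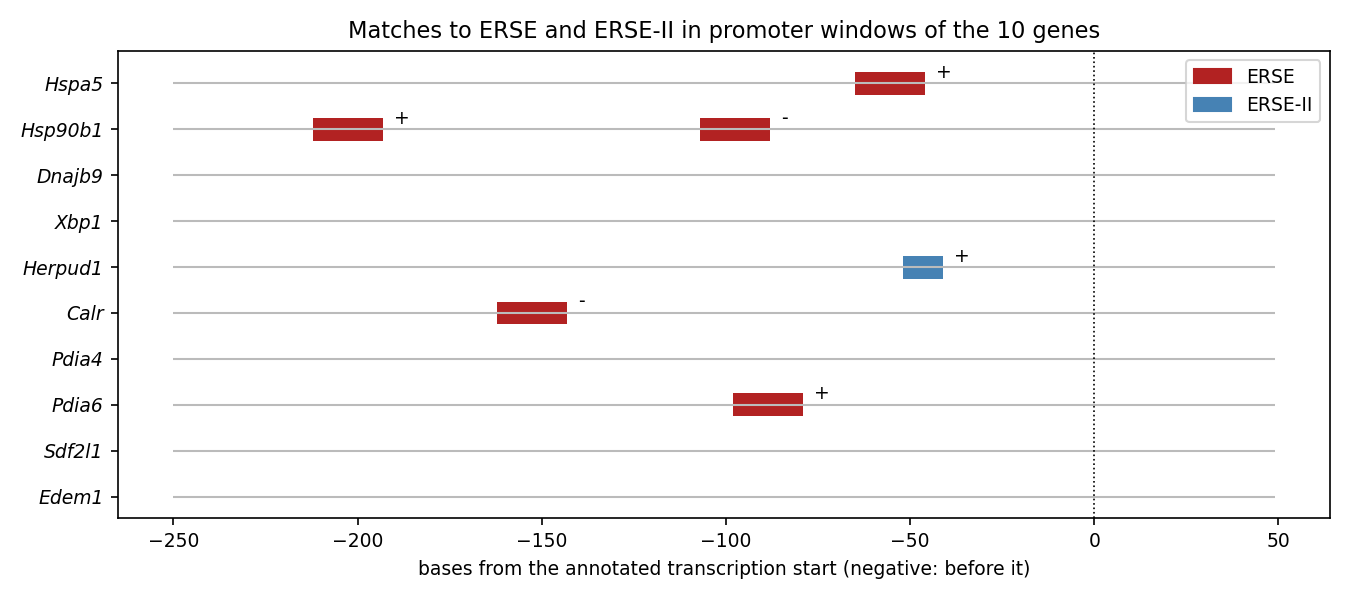
Position of each ERSE (red) and ERSE-II (blue) match in the promoter windows of the 10 genes, in bases from the annotated start, with + for the gene's own strand and - for the opposite one. Matches lie in 5 windows, 2 of them in Hsp90b1, all before the start.

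Of the 10 genes, 7 lay above both control samples in both MCT 270 samples, and 7 lay above both control samples at MCT 330. In the fit of 5 samples none passed limma's test against control at either dose. With MCT 330 replicate 1 as a sample of its own, Edem1 passed at MCT 270, where 6.98% of all genes did. At MCT 330 Calr, Hspa5 and Xbp1 then passed higher and Herpud1 lower, where 55.4% of all genes passed. The 7 at MCT 270 were Hspa5, Hsp90b1, Xbp1, Calr, Pdia4, Sdf2l1 and Edem1, where 25.4% of all 24786 genes tested were higher without overlap, and at MCT 330 that share was 32.1%. The higher level was most visible in the sample of MCT 270 replicates 2 and 3, where 7 of the 10 genes reached their highest value of the 5 samples, against 13.2% of all genes. Herpud1 and Edem1, both of ER-associated degradation, lay below both control samples at MCT 330, as did 54.5% of all genes. Herpud1 had a log2 fold change of -0.98 there. Edem1 was near no change at -0.10, and its sign was the opposite under quantile normalization.

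**Figure D2:**
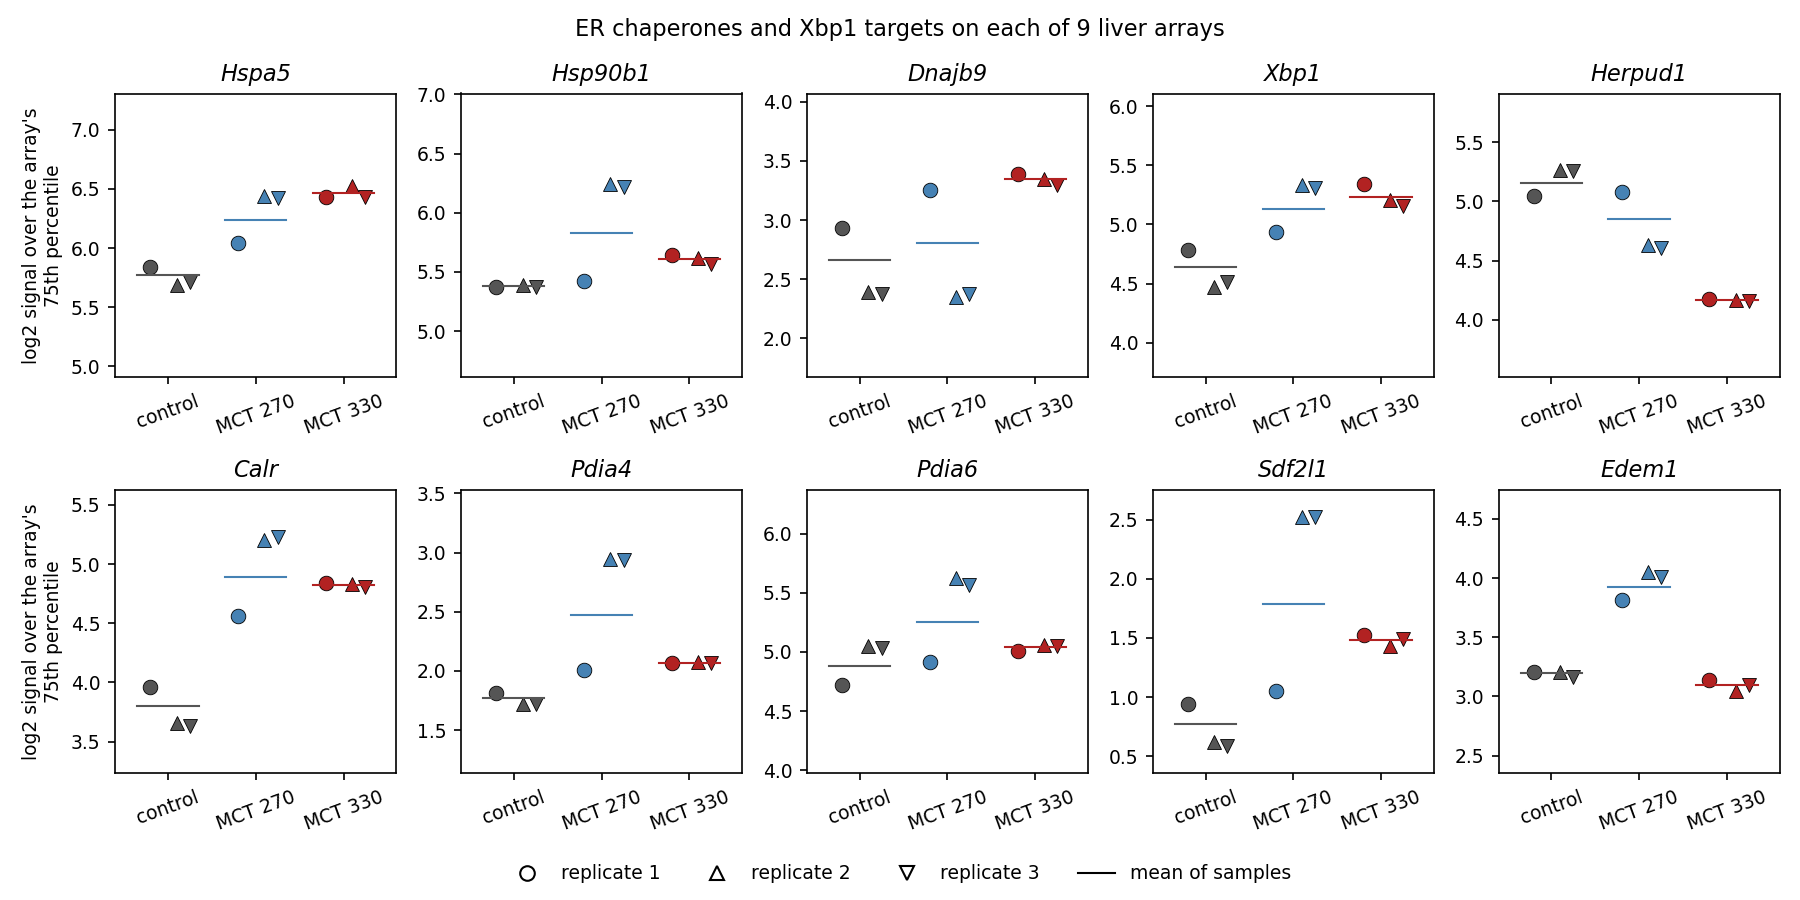
Log2 signal over the array's 75th percentile on each of the 9 arrays for the 10 genes, with symbols for replicates 1, 2 and 3, a line at the mean of the distinguishable samples, and the same span of log2 units in each panel. Replicates 2 and 3 lie together in all groups, and the MCT 270 pair stands above MCT 270 replicate 1 for 8 of the 10 genes.

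Hspa5 encodes BiP, the main Hsp70 chaperone of the ER, which also holds the 3 sensors inactive. Its log2 signal was 5.84, 5.69 and 5.71 on the control arrays, 6.04, 6.44 and 6.42 on the MCT 270 arrays and 6.43, 6.52 and 6.43 on the MCT 330 arrays. All 6 arrays of treated mice lay above all 3 control arrays. The log2 fold change was 0.47 ± 0.20 at MCT 270 (SE, 2 samples against 2, limma adjusted p = 0.311) and 0.69 ± 0.25 at MCT 330 (1 against 2, limma adjusted p = 0.0906). Its promoter holds the ERSE nearest to a start among the 10 genes.

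Hsp90b1 encodes the Hsp90 chaperone of the ER, which folds a narrower set of client proteins. Hsp90b1 read a log2 signal of 5.37, 5.39 and 5.38 on the control arrays, 5.42, 6.24 and 6.22 on the MCT 270 arrays and 5.64, 5.61 and 5.57 on the MCT 330 arrays. MCT 270 replicates 2 and 3 stood apart from the other 7 arrays, and MCT 270 replicate 1 lay close to the controls. The log2 fold change was 0.45 ± 0.30 at MCT 270 and 0.23 ± 0.37 at MCT 330 (limma adjusted p = 0.479 and 0.656).

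Calr encodes calreticulin, a lectin chaperone that binds sugar chains of unfolded glycoproteins and also stores calcium. Its log2 signal was 3.96, 3.66 and 3.63 on the control arrays, 4.56, 5.20 and 5.23 on the MCT 270 arrays and 4.84, 4.83 and 4.81 on the MCT 330 arrays, so all treated arrays lay above all controls. The gene had the highest fold change of the 10 at both doses, at 2.13-fold for MCT 270 (log2 1.09 ± 0.28, limma adjusted p = 0.161) and 2.04-fold for MCT 330 (log2 1.03 ± 0.34, limma adjusted p = 0.0786). Between the doses the difference was -0.06, with a 95% interval from -0.96 to 0.83, and it was above 0 under quantile normalization (0.11) and with normexp background correction (0.062).

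Sdf2l1 encodes a partner of BiP that helps to keep misfolded proteins soluble. The log2 signal of Sdf2l1 was 0.94, 0.62 and 0.58 on the control arrays, 1.05, 2.53 and 2.52 on the MCT 270 arrays and 1.53, 1.43 and 1.49 on the MCT 330 arrays. It spanned 1.92 log2 units over the 5 samples, the widest range of the 10 genes. MCT 270 replicate 1 exceeded the highest control array only slightly, while replicates 2 and 3 exceeded every other array. The log2 fold change was 1.01 ± 0.51 at MCT 270 and 0.71 ± 0.63 at MCT 330 (limma adjusted p = 0.368 and 0.420).

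Dnajb9 encodes a J-domain co-chaperone that drives BiP's cycle and is known to restrain Ire1. On the log2 scale Dnajb9 read 2.94, 2.39 and 2.37 on the control arrays, 3.25, 2.35 and 2.37 on the MCT 270 arrays and 3.39, 3.35 and 3.29 on the MCT 330 arrays. Replicate 1 was the highest array of both the control and the MCT 270 group, and control and MCT 270 samples overlapped. Within MCT 270 that is the opposite of the order of Hspa5, Calr, Pdia4 and Sdf2l1, which within the control group were also highest on replicate 1. All MCT 330 arrays exceeded all control arrays, at a log2 difference of 0.68 ± 0.46 (limma adjusted p = 0.296). Its second probe gave 0.41 at MCT 270 and 1.61 at MCT 330, against 0.15 and 0.68 for the brighter probe that was used. The 2 probes thus had the same direction at both doses and differed in size.

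Pdia4 and Pdia6 encode disulphide isomerases, which make and correct disulphide bonds in folding proteins. Pdia4 had a log2 signal of 1.82, 1.72 and 1.72 on the control arrays, 2.01, 2.95 and 2.94 on the MCT 270 arrays and 2.07, 2.08 and 2.06 on the MCT 330 arrays. Pdia6 had 4.72, 5.05 and 5.03 on the control arrays, 4.91, 5.63 and 5.57 on the MCT 270 arrays and 5.00, 5.06 and 5.05 on the MCT 330 arrays. Both were highest in MCT 270 replicates 2 and 3, and for Pdia6 the other 7 arrays mixed across groups. Log2 fold changes at MCT 270 were 0.71 ± 0.34 for Pdia4 and 0.37 ± 0.29 for Pdia6 (limma adjusted p = 0.350 and 0.531). At MCT 330 they were 0.30 ± 0.42 and 0.16 ± 0.35 (limma adjusted p = 0.605 and 0.753). The second Pdia6 probe gave 0.44 and 0.09.

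Herpud1 encodes a membrane protein that organises the ubiquitin ligase complex of ER-associated degradation, in which misfolded proteins are sent back to the cytosol and destroyed. The log2 signal of Herpud1 was 5.04, 5.26 and 5.26 on the control arrays, 5.08, 4.63 and 4.60 on the MCT 270 arrays and 4.18, 4.16 and 4.16 on the MCT 330 arrays. The MCT 330 arrays were the lowest of all 9, and Herpud1 was the only one of the 10 genes whose difference from control was below 0 at both doses. The log2 fold change was -0.30 ± 0.22 at MCT 270 (limma adjusted p = 0.510) and -0.98 ± 0.27 at MCT 330 (limma adjusted p = 0.0510, just above the threshold of 0.05). Herpud1 also carries the only ERSE-II among the 10 promoters.

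Edem1 encodes a lectin that picks out glycoproteins for degradation, and is known as a target of Xbp1. Its log2 signal was 3.21, 3.21 and 3.17 on the control arrays, 3.81, 4.05 and 4.01 on the MCT 270 arrays and 3.13, 3.04 and 3.10 on the MCT 330 arrays. The MCT 270 arrays formed a group of their own, with a gap of more than 0.5 to all others, and all MCT 330 arrays lay below all control arrays. The log2 fold change was 0.72 ± 0.17 at MCT 270 (limma adjusted p = 0.140) and -0.10 ± 0.20 at MCT 330 (limma adjusted p = 0.716), where it was 0.082 under quantile normalization and 0.083 with normexp background correction. Between the doses Edem1 was 0.83 ± 0.20 lower on the log2 scale.

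Xbp1 itself, the factor at the head of the list, had a log2 signal of 4.78, 4.48 and 4.52 on the control arrays, 4.94, 5.33 and 5.31 on the MCT 270 arrays and 5.34, 5.21 and 5.16 on the MCT 330 arrays. All treated arrays lay above all control arrays. The log2 fold change was 0.49 ± 0.22 at MCT 270 (limma adjusted p = 0.318) and 0.60 ± 0.27 at MCT 330 (limma adjusted p = 0.147). The dose difference was 0.11, with a 95% interval from -0.59 to 0.80. Over the 5 samples, after each gene was centred on its mean, Xbp1 and Hspa5 differed by a root mean square of 0.0638 log2 units, the smallest distance of Hspa5 to any of the other 9 genes, and Herpud1 was the farthest from Hspa5 at 0.685.

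**Figure D3:**
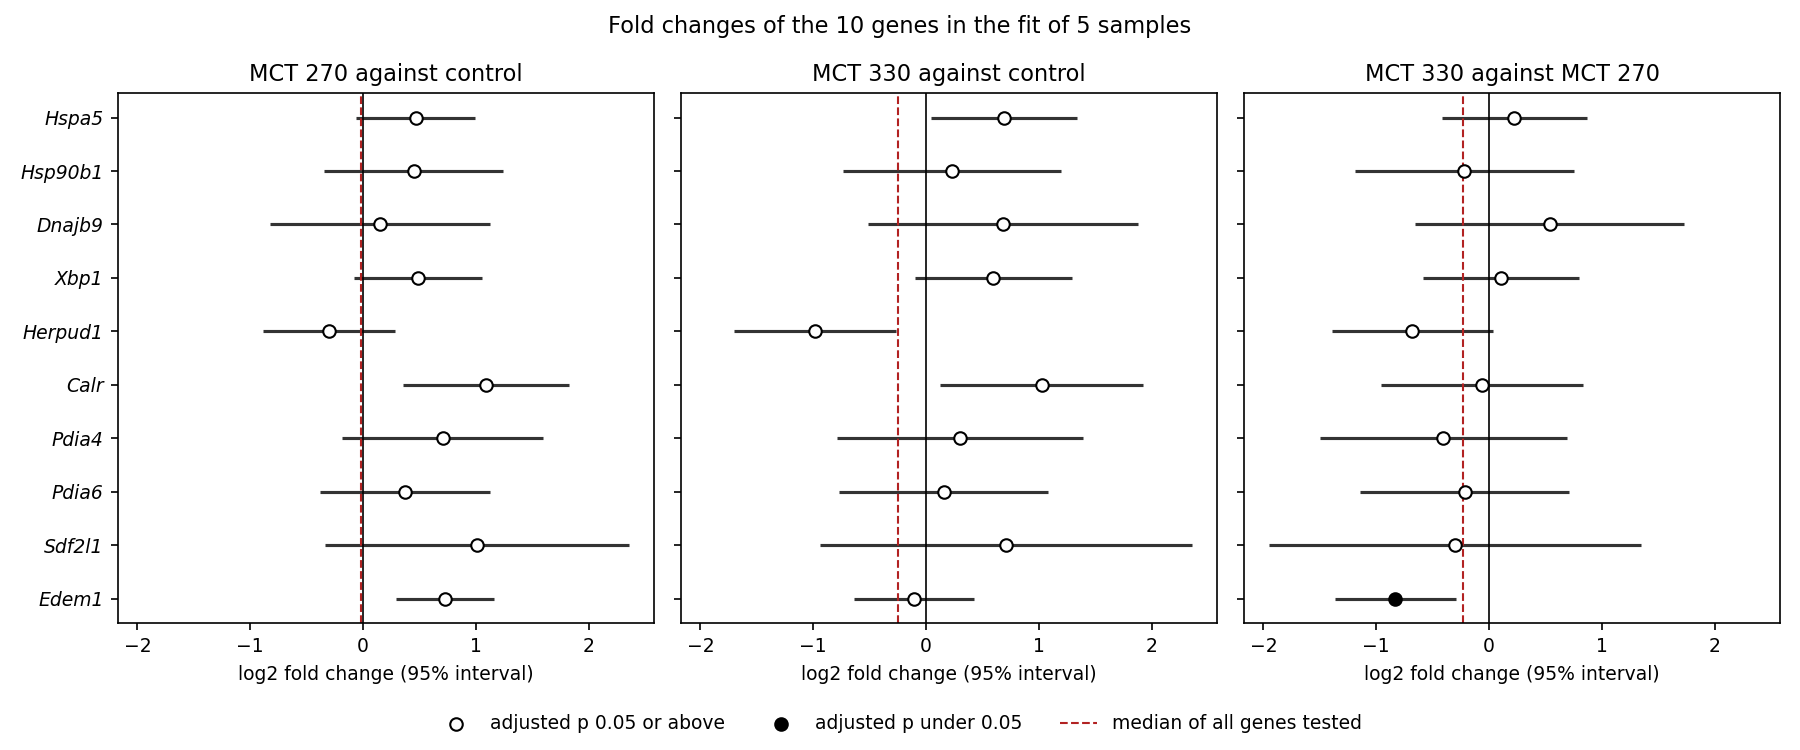
Log2 fold change of the 10 genes with 95% intervals in the 3 comparisons, filled where limma's adjusted p was under 0.05, with a dashed line at the median of all genes tested. Only Edem1 in MCT 330 against MCT 270 is filled, and 9 of 10 points lie right of the dashed line in MCT 330 against control.

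In MCT 270 against control 0 of the 10 genes passed limma's test at an adjusted p under 0.05, as did 0% of the 24786 genes, the lowest adjusted p being 0.0592. At an unadjusted p under 0.05 Calr and Edem1 were higher, 2 of 10 against 9.8% of all genes, and 0 of 10 were lower, against 8.8%. The median log2 fold change of the 10 genes was 0.48, with all genes at -0.02. Within the first shared scan time (2 arrays against 2) the differences of the 10 genes ran from -0.30 for Herpud1 to 1.08 for Calr, and within the second (1 against 1) from -0.65 for Herpud1 to 1.94 for Sdf2l1. Only Dnajb9 changed sign between them, at 0.14 and -0.0032. With all 9 arrays as samples, 8 of the 10 passed, 7 higher and Herpud1 lower, against 38.5% of all genes, but that fit counts arrays within the spot noise as separate samples. With MCT 330 replicate 1 as a sample of its own Edem1 passed (limma adjusted p = 0.0389), against 6.98% of all genes.

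In MCT 330 against control 0 of the 10 genes passed, where 33.3% of all genes did, 9.49% higher and 23.8% lower (29.7%, 12.5% and 17.3% under quantile normalization). At an unadjusted p under 0.05 there were 2 higher, Hspa5 and Calr, and 1 lower, Herpud1, against 14.5% and 32.5% of all genes. Without overlap between samples, 7 genes were higher and 2 lower, against 32.1% and 54.5% of all genes. The median of all genes moved by -0.25 at MCT 330 under this scaling and by -0.05 under quantile normalization. Relative to the median of all genes, 9 of the 10 lay above 0, from 0.15 for Edem1 to 1.28 for Calr, and Herpud1 lay at -0.73. With MCT 330 replicate 1 as a sample of its own 4 of the 10 passed: Calr (limma adjusted p = 0.0192), Hspa5 (0.0189) and Xbp1 (0.0380) higher, and Herpud1 (0.00921) lower, against 55.4% of all genes. With 9 arrays as samples 5 passed, against 72.9%.

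In MCT 330 against MCT 270 Edem1 alone passed, with a limma adjusted p of 0.0499, where 21.8% of all genes passed, 4.98% higher and 16.8% lower. That call was lost in 13 of 21 alternatives, with a limma adjusted p of up to 0.214 when MCT 270 replicates 2 and 3 were left out. It was lost under quantile normalization (limma adjusted p = 0.0753), with no filter on dim probes (0.115) and without MCT 270 replicate 1 (0.175), and in the other 9 the limma adjusted p was at most 0.0579. It was lost when any 1 array other than control replicate 3 was left out. With MCT 330 replicate 1 apart Edem1 and Herpud1 passed, against 45.3% of all genes, and with 9 arrays 3 genes did, against 65.1%. Samples of the 2 doses did not overlap for 4 genes: Hspa5 and Dnajb9 were higher at MCT 330, against 31.2% of all genes, and Herpud1 and Edem1 lower, against 56% of all genes. For the other 6 genes the MCT 330 sample lay between the 2 MCT 270 samples. Without MCT 270 replicates 2 and 3 the differences of Sdf2l1 (0.43), Calr (0.26), Hsp90b1 (0.18), Pdia6 (0.13) and Pdia4 (0.062) were above 0, where the fit with them gave values below 0.

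The 2 MCT 270 samples differed more in these genes than the 2 control samples did, a description with no test because it sets 1 sample against 1. MCT 270 replicates 2 and 3 minus replicate 1 gave 1.47 for Sdf2l1, 0.93 for Pdia4, 0.81 for Hsp90b1, 0.68 for Pdia6 and 0.65 for Calr on the log2 scale. It gave 0.39 for Hspa5, 0.38 for Xbp1, 0.22 for Edem1, -0.46 for Herpud1 and -0.89 for Dnajb9. In size, 6 of the 10 exceeded 0.5, against 12.0% of all genes, and the median size was 0.67 for the 10 genes and 0.17 for all genes. Between the control samples 1 of the 10 did, Dnajb9 at -0.55, against 21.7% of all genes, with a median size of 0.25 for both. Against the range of the control samples, MCT 270 replicate 1 lay above it for 8 genes and below it for 0 (35.8% and 35.5% of all genes). The sample of replicates 2 and 3 lay above it for 8 and below it for 2 (33.9% and 39.4% of all genes). The share of probes well above background was 75.2% on MCT 270 replicate 1 and 80.2% and 75.7% on replicates 2 and 3.

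**Figure D4:**
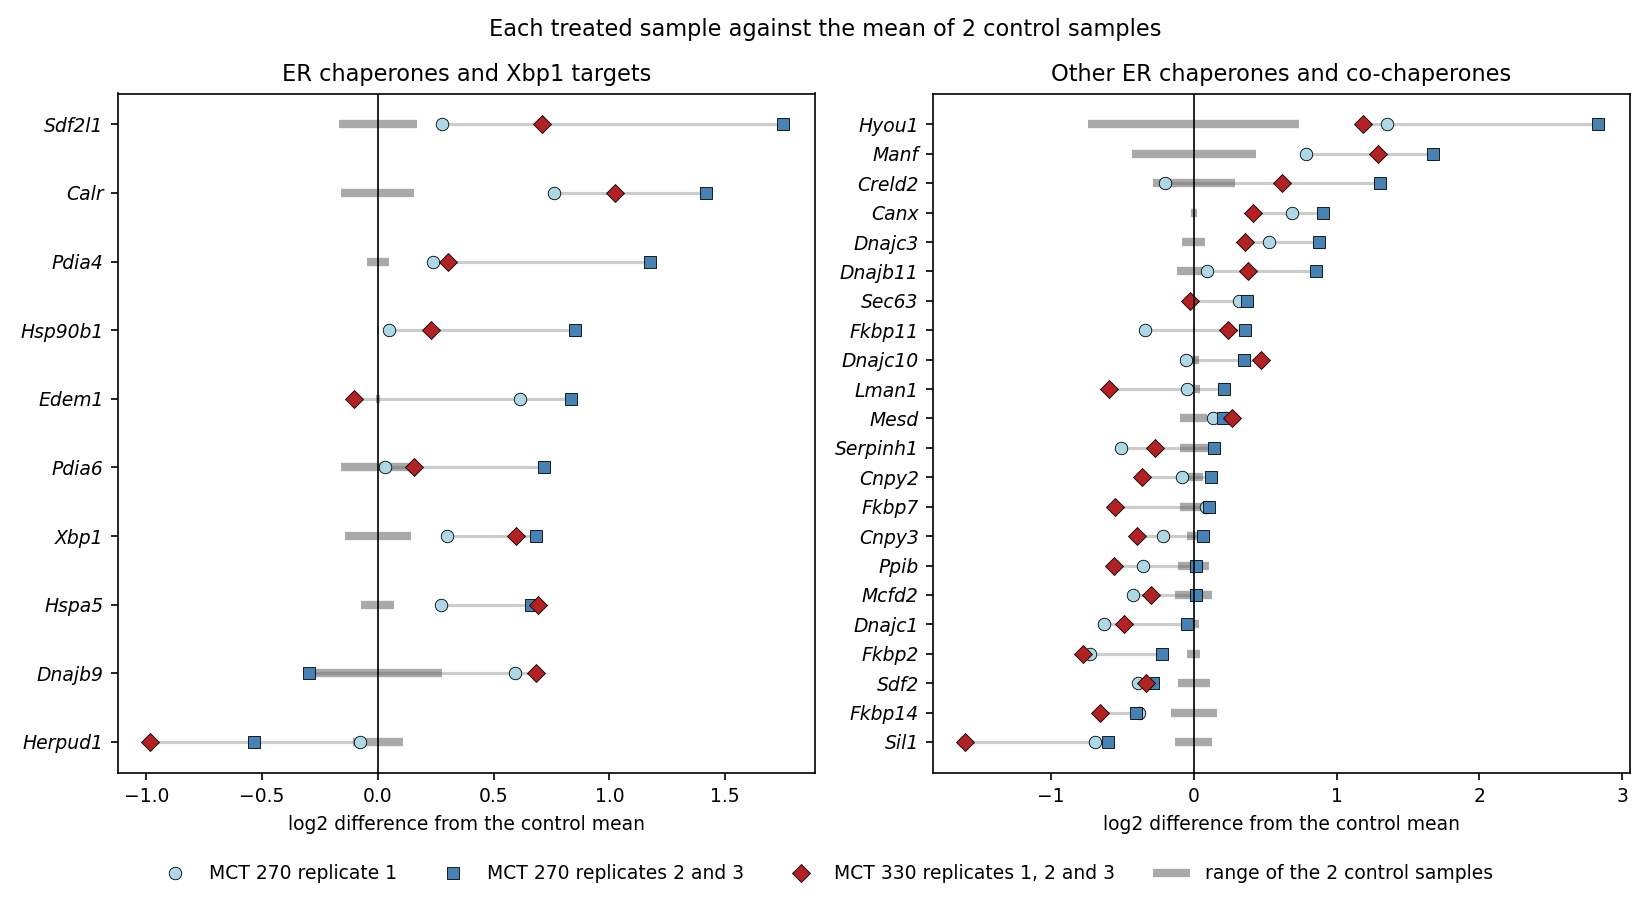
Log2 difference of each treated sample from the mean of the 2 control samples, for the 10 genes (left) and 22 other ER chaperones and co-chaperones (right), with a grey bar for the range of the control samples and genes ordered by the sample of MCT 270 replicates 2 and 3. Among the 10 genes, Sdf2l1 reaches 1.75 in that sample, and Herpud1 lies lowest at MCT 330 with -0.98.

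Other chaperones and co-chaperones of the ER, a list of 22 genes, had 0 higher and 0 lower in MCT 270 against control and 0 higher and 1 lower in MCT 330 against control by limma's test, where 9.49% and 23.8% of all genes passed. At an unadjusted p under 0.05, 4 of the 22 were higher and 1 lower at MCT 270, against 9.8% and 8.8% of all genes, and 0 higher and 5 lower at MCT 330, against 14.5% and 32.5%. The list's median log2 fold change was 0.05 at MCT 270 and -0.29 at MCT 330, with all genes at -0.02 and -0.25. Sil1, the nucleotide exchange factor of BiP, fell at MCT 330: its log2 signal was 3.22 and 3.48 in the control samples, 2.66 and 2.75 in the MCT 270 samples and 1.75 in the MCT 330 sample (-1.60 ± 0.21, limma adjusted p = 0.0113). The prolyl isomerases Fkbp2 (-0.78), Fkbp14 (-0.65) and Fkbp7 (-0.55) did not pass. Between the MCT 270 samples, 8 of the 22 were over 0.5 higher in replicates 2 and 3 and 0 over 0.5 lower, against 4.72% and 7.25% of all genes.

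Genes of that list that lay more than 0.5 above the control mean in MCT 270 replicates 2 and 3 are named here after their values were seen. They were Hyou1, Manf, Creld2, Canx, Dnajc3 and Dnajb11, and none passed limma's test at either dose. Manf, a secreted ER-resident factor, was at 2.83 and 1.97 in the control samples, 3.19 and 4.07 in the MCT 270 samples and 3.69 in the MCT 330 sample. Creld2, which has isomerase-like activity, was at 2.38 and 1.80 in the control samples, 1.89 and 3.40 in the MCT 270 samples and 2.71 in the MCT 330 sample. As for Pdia4 and Sdf2l1, the sample of MCT 270 replicates 2 and 3 was the highest of both. Hyou1, a large Hsp70-like exchange factor of BiP, was at -3.74 and -2.26 in the MCT 270 samples and was well above background on 1 of 3 control arrays. Canx, the membrane-bound relative of calreticulin, and the J-domain proteins Dnajc3 and Dnajb11 were 0.91, 0.88 and 0.85 above the control mean in that sample. Of the 18 genes of the list with a promoter window, 4 held one of the searched motifs, against 0.884% of all genes with a window. They were Canx, Creld2, Dnajb11 and Dnajc3. All are among the genes named here by their values, so a link between motif and level was not tested.

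Disulphide formation had 2 higher and 1 lower of 16 genes in MCT 330 against control, where 9.49% and 23.8% of all genes passed. At MCT 270 it had 0 of either by limma's test, and 6 higher and 1 lower at an unadjusted p under 0.05, against 9.8% and 8.8% of all genes. Ero1a, the oxidase that recharges disulphide isomerases, was at -1.72 and -1.69 in the control samples, -0.89 and -0.87 in the MCT 270 samples and 1.53 in the MCT 330 sample (3.23 ± 0.18, limma adjusted p = 0.00904). Its 5 values rank with dose without overlap, unlike those of Pdia4 and Pdia6. Tmx1, a membrane-bound isomerase, rose by 1.01 ± 0.20 (limma adjusted p = 0.0227), and Prdx4, an ER peroxidase, fell by 0.84 ± 0.23 (limma adjusted p = 0.0491). The Prdx4 call was lost in 8 of 21 alternatives (limma adjusted p of up to 0.113), among them those without MCT 270 replicate 1, MCT 270 replicate 2, MCT 330 replicate 1 and control replicate 2.

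Degradation, translocation and transport genes of the ER are set against the 9.49% of all genes that passed limma's test higher at MCT 330 and the 23.8% that passed lower. At MCT 270 these 3 lists had 0 of either, and at an unadjusted p under 0.05 they had 2 higher and 2 lower of 27, 6 and 2 of 39, and 6 and 0 of 32, against 9.8% and 8.8% of all genes. ER-associated degradation had 0 higher and 2 lower of 27 at MCT 330, the glycan-binding proteins Erlec1 (-1.16 ± 0.20, limma adjusted p = 0.0169) and Os9 (-1.07 ± 0.22, limma adjusted p = 0.0250). Translocon, signal peptidase and N-glycosylation genes had 1 higher and 2 lower of 39. Gfpt1, which feeds the hexosamine pathway and is a known Xbp1 target, rose by 0.76 ± 0.20, and the mannose donor enzyme Dpm1 and the translocon partner Sec62 had -1.26 and -0.79 (limma adjusted p = 0.0427, 0.0152 and 0.0381). The Sec62 call was lost in 8 of 21 alternatives (limma adjusted p of up to 0.112), among them those without control replicate 1, MCT 270 replicate 1 and MCT 330 replicate 1, and the Gfpt1 call in 4 (up to 0.125), among them that without MCT 270 replicate 1. ER-to-Golgi transport had 0 higher and 1 lower of 32, the Golgi tether Golgb1 at -1.07 ± 0.20 (limma adjusted p = 0.0215). Kdelr2, a receptor that returns BiP and other chaperones to the ER, was at 0.93 ± 0.26 and did not pass (limma adjusted p = 0.0510).

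**Figure D5:**
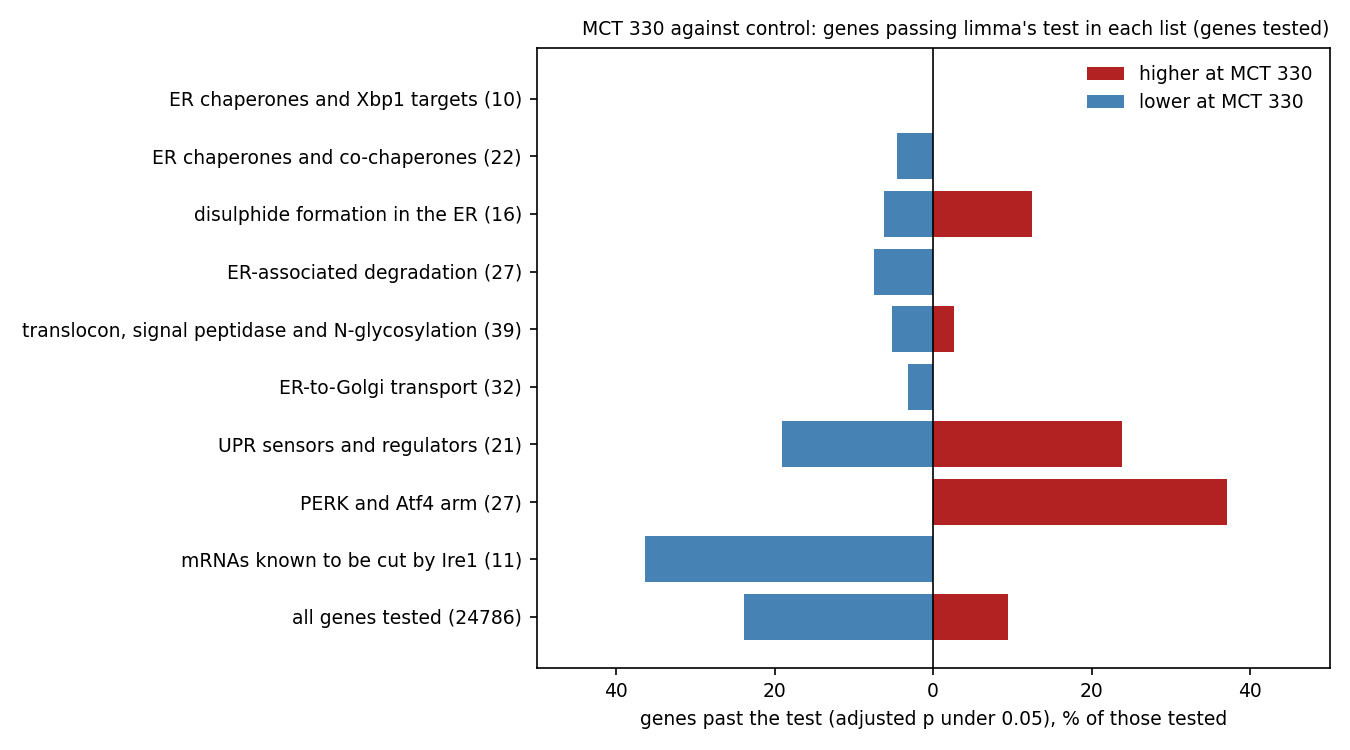
Share of the genes tested in each list that passed limma's test in MCT 330 against control, higher in red to the right and lower in blue to the left, in percent, with the number of genes tested in brackets. In the fit of 5 samples shown, the Perk and Atf4 list has 10 of 27 higher and 0 lower. The 10 ER folding genes have 0 in both directions in that fit.

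UPR sensors and regulators had 5 higher and 4 lower of 21 at MCT 330 by limma's test, against 9.49% and 23.8% of all genes, and 0 of either at MCT 270 (2 and 1 at an unadjusted p under 0.05, against 9.8% and 8.8%). Eif2ak3, which encodes Perk, was at 0.65 and 0.48 in the control samples, 0.67 and 0.49 in the MCT 270 samples and 1.84 in the MCT 330 sample (1.27 ± 0.21, limma adjusted p = 0.0155). Creb3l2, a membrane-bound factor related to Atf6, rose by 2.64 ± 0.28 (limma adjusted p = 0.00912), and Rtcb, the ligase that joins the cut Xbp1 mRNA, by 0.95 ± 0.19 (limma adjusted p = 0.0225). Mbtps2, a protease that releases Atf6, had 1.07 ± 0.21 (limma adjusted p = 0.0236) but was well above background on 1 of 3 control arrays.

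The Perk and Atf4 list had 10 higher and 0 lower of 27 at MCT 330 by limma's test (12 and 0 at an unadjusted p under 0.05), against 9.49% and 23.8% of all genes (14.5% and 32.5%), and 0 of either at MCT 270 (0 and 2, against 9.8% and 8.8%). Slc7a11 (on 3 MCT 330 arrays, 0 MCT 270 arrays and 0 control arrays) and Mthfd2 (on 3, 1 and 0) were well above background in full only at MCT 330 and entered the test through that group. Slc7a11 is 1 of the 10, which leaves 9 without it, and Mthfd2 did not pass. Ddit3, the factor known as Chop, was at -2.08 and -2.15 in the control samples, -1.90 and -1.84 in the MCT 270 samples and 0.09 in the MCT 330 sample (2.20 ± 0.19, limma adjusted p = 0.00904). Atf3, which many kinds of stress induce, rose by 6.04 ± 0.40, the stress cytokine Gdf15 by 4.23 ± 0.34 and Slc3a2, an amino acid transporter subunit, by 1.76 ± 0.20 (limma adjusted p = 0.00904, 0.00904 and 0.00966). The list's median log2 fold change was -0.08 at MCT 270, with genes from -4.34 to 0.62, and 0.57 at MCT 330, with genes from -2.55 to 6.04. Of the 27, 12 were above 0 and 15 below at MCT 270, and 19 above and 8 below at MCT 330. The control samples differed here too, with 13 of the 27 over 0.5 higher in replicates 2 and 3 than in replicate 1 and 0 over 0.5 lower, against 9.19% and 12.5% of all genes.

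Messenger RNAs that Ire1 is known to cut had 0 higher and 4 lower of 11 at MCT 330 by limma's test (0 and 5 at an unadjusted p under 0.05), against 9.49% and 23.8% of all genes (14.5% and 32.5%). At MCT 270 they had 0 of either (1 and 2 at an unadjusted p under 0.05, against 9.8% and 8.8%). The median log2 fold change at MCT 330 was -0.71, with all genes at -0.25. Col6a1, a collagen chain, was at 1.79 and 1.49 in the control samples, 0.90 and 1.02 in the MCT 270 samples and -0.37 in the MCT 330 sample (-2.01 ± 0.22, limma adjusted p = 0.00937). The carboxylesterase Ces1d had -1.81 ± 0.27, the myelin protein Pmp22 -1.52 ± 0.34 and the kinase Pdk2 -0.93 ± 0.21 (limma adjusted p = 0.0132, 0.0304 and 0.0309). The calls of Pmp22 and Pdk2 were each lost in 4 of 21 alternatives (limma adjusted p of up to 0.0732 and 0.0882), that of Pmp22 without control replicate 1 and that of Pdk2 without MCT 270 replicate 1. Markers of stellate cells and fibroblasts, which express Col6a1, moved the same way: their summed level was 96.0 and 78.7 in the control samples, 45.5 and 49.5 in the MCT 270 samples and 38.2 in the MCT 330 sample, with 7 of 15 lower and 1 higher at MCT 330. In whole liver, fewer cells of a type and less RNA per cell cannot be told apart, and the part of these cells in the result was not tested.

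Secretory cell types other than hepatocytes also express the 10 genes. Of 14 measured exocrine pancreas markers 8 were well above background on all arrays, and Pnlip was on 0. Their summed level was 7.29 and 4.52 in control samples, 5.17 and 4.42 in the MCT 270 samples and 2.55 in the MCT 330 sample. At MCT 330 0 of the 14 passed higher and 4 lower, against 9.49% and 23.8% of all genes. Cela3b, 1 of the 4, was well above background on 1 MCT 330 array. Of 12 measured plasma and B cell markers 9 were well above background on all arrays, and Tnfrsf17 was on 2. Their summed level was 4.08 and 5.35 in the control samples, 6.21 and 8.53 in the MCT 270 samples and 8.38 in the MCT 330 sample. Sdc1, which hepatocytes also express, is the marker with the highest mean signal in that list. Without Sdc1 the sum was 1.50 and 1.44 in the control samples, 1.40 and 1.75 in the MCT 270 samples and 2.00 in the MCT 330 sample. At MCT 270 10 of the 12 had a log2 fold change above 0, as did 11838 of all 24786 genes. These ran from 0.01 for Fkbp11 to 1.17 for Ms4a1, with Jchain at -1.20 and Irf4 at -0.06. Of the 12, 0 passed limma's test. At an unadjusted p under 0.05 2 were higher and 1 lower, against 9.8% and 8.8% of all genes. At MCT 330 Ms4a1 (2.10), Pou2af1 (1.48) and Cd79b (1.34) passed higher and Jchain (-1.43) lower, against 9.49% and 23.8% of all genes. Ms4a1 was well above background on 0 control arrays. Derl3 and Fkbp11 among these markers also stand in the ER lists, and the part of such cells in the result was not tested.

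Leucocyte and endothelial markers moved as well. Counts here are set against the 9.49% of all genes that passed higher at MCT 330 and the 23.8% that passed lower. The summed level of neutrophil markers was 23.0 and 26.2 in the control samples, 27.3 and 52.1 in the MCT 270 samples and 244 in the MCT 330 sample. Lcn2, which stressed hepatocytes also make, is the brightest of these markers, and without it the sum was 18.7 and 20.1 in the control samples, 17.0 and 16.0 in the MCT 270 samples and 46.7 in the MCT 330 sample. At MCT 330 8 of the 15 passed higher, 5 of which were well above background on fewer than 3 control arrays, and 1 lower, Mpo, which was well above background on 0 MCT 330 arrays. Camp (-0.82) and Elane (-0.87) did not pass. That of sinusoidal endothelium was 45.1 and 43.8, 22.2 and 18.9, and 13.7 in the same order, with 11 of 15 lower and 0 higher at MCT 330. Monocyte and macrophage markers had 6 higher and 6 lower of 15 at MCT 330. Of the 6 higher, Ccr2, Clec4d and Clec4e were well above background on fewer than 3 control arrays. Cholangiocyte markers had 1 higher and 2 lower of 9, near the shares of all genes. The higher one, Krt7, was well above background on 0 control arrays. Hepatocyte markers summed to 4566 and 5199 in the control samples, 5038 and 3909 in the MCT 270 samples and 3681 in the MCT 330 sample. MCT 270 replicates 2 and 3, where 7 of the 10 genes were highest, had a lower hepatocyte sum than replicate 1. The part of hepatocytes in the result was not tested.

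Genes whose pattern over the 5 samples was most like that of Hspa5, among 14375 named genes well above background on all arrays, were Poglut2, Shkbp1, Cap1 and Cdk16, with root mean square differences of 0.0283, 0.0336, 0.0448 and 0.0497 log2 units. In all, 87 genes lay within 0.1 of Hspa5. For Xbp1 they were Tceanc2, Sys1, Nrde2 and Depdc7, at 0.0270, 0.0413, 0.0530 and 0.0555, and 45 genes lay within 0.1. With 5 samples many genes share a pattern, so these distances describe likeness on these arrays only.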

How the data were processed

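The authors deposited, per the file headers, spot intensity values from 1-colour Cy3 scans made with Agilent Feature Extraction 11.0.1.1, on a design annotated on mm9. The processed intensity was background-subtracted by that software, per the file headers. Log2 values are of the deposited processed intensity, computed here. Of 44397 spots per array, 1377 controls were left out, no spot was saturated, and outlier-flagged spots were set to missing. Repeated spots were averaged. A probe was kept when some group had it well above background on each of its arrays, and each gene took its brightest probe, which gave 24786 genes. Of 33258 systematic names 21464 matched a symbol in the reference table. A name without a match was kept and counted as a gene of its own. The 24786 genes, and all shares of all genes, thus include transcripts without a symbol.

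Arrays were averaged where their difference over all probes was at most the noise between repeated spots. The written design asked this of each brightness class. MCT 330 replicate 1 exceeded it there (ratios of 1.07 and 1.11) but not over all probes, and was still averaged. The fit that keeps it apart is therefore given beside the results of the 10 genes and of all genes. Where only 1 of the MCT 330 arrays differed at a spot from both others by over 1 log2 unit, that array's value was dropped first. Groups were compared in a single fit with limma 3.58.1 (lmFit, eBayes) in R 4.3.3, with Benjamini-Hochberg adjustment over all genes. The fit was tested on simulated data. Alternatives changed the scaling, background correction (median signal intensity and its deposited background, normexp with offset 50), filter, probe rule, flags, array count, blocks and left-out arrays.

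Members and lists were chosen with earlier results of these data known. Named list genes are the 4 per list with the smallest p for MCT 330 against control, and up to 4 most like Hspa5 or Xbp1. The miRNA arrays of the series were not used here.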

Additional observations from a re-analysis of the deposited data

How the results depend on the processing

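The number of the 10 ER folding genes that passed in MCT 270 against control was 0. It became 1 with normexp background correction and 1 with MCT 330 replicate 1 as a sample of its own. It became 2 with scan time as a fixed block, a fit of the control and MCT 270 arrays only. Over 9 arrays it became 7 with scan time as a random block and 8 with each array as a sample. In MCT 330 against control (0) it became 1 with an intensity trend, 4 with MCT 330 replicate 1 apart, 5 with 9 arrays and 6 with the random block. In MCT 330 against MCT 270 (1) it became 0 under quantile normalization, with no filter on dim probes and with flagged spots kept, 2 with MCT 330 replicate 1 apart, 3 with 9 arrays and 4 with the random block, and lay between 0 and 1 when arrays or samples were left out. With 9 arrays and the replicate number as a block, 6, 5 and 3 genes passed in the 3 comparisons. Same-numbered arrays of different groups had correlated deviations of -0.035 to 0.042 over 9 pairs, against -0.061 to 0.053 over 18 pairs of unlike numbers. Arrays within spot noise recur in these pairs, so the pairs are not independent and a pairing of the samples was not excluded. Fits of 9 arrays, and the fixed block fit, by construction take arrays within spot noise as samples. The count over all genes moved too: for MCT 270 against control from 0 to 515 with normexp, 1727 with MCT 330 replicate 1 apart and 9540 with 9 arrays, and for MCT 330 against control from 8256 to 13717 and 18038 with the last 2.

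Of 640 values of the 10 genes under alternatives, 13 changed sign, none of them past the threshold, and the cause was not tested. For MCT 270 against control, Dnajb9 was -0.30 without MCT 270 replicate 1 (to 0.42 over single arrays left out) and -0.13 without control replicates 2 and 3. For MCT 330 against control, Edem1 was 0.082 under quantile normalization and 0.083 with normexp, and Pdia6 -0.0032 without control replicate 1 (to 0.17). For MCT 330 against MCT 270, Calr was 0.11 under quantile normalization, 0.062 with normexp and 0.26 without MCT 270 replicates 2 and 3, where Hsp90b1 was 0.18, Pdia4 0.062, Pdia6 0.13 and Sdf2l1 0.43, and Xbp1 was -0.087 without MCT 270 replicate 1 (to 0.14). Of 22 named list genes that passed in MCT 330 against control, 13 lost the call in at least 1 of 21 alternatives and none changed sign. Beside those given above, Dpm1, Eif2ak3, Erlec1, Golgb1, Mbtps2, Os9, Rtcb and Tmx1 lost it without MCT 270 replicate 1 (limma adjusted p = 0.0521 for Dpm1 to 0.0793 for Rtcb).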
